A study of Mus musculus with 8 samples.

Results

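This report covers Ucp1 and 8 further genes of the brown fat heat programme, Dio2, Elovl3, Ppargc1a, Cidea, Cox7a1, Cox8b, Otop1 and Kcnk3, in brown adipose tissue (BAT) of mice. A probe was taken when the RefSeq transcript it was designed on carries one of these symbols, which gave 11 probes for 9 of the 21154 genes named on the array, and all 11 were tested among 33364 probes. Otop1 and Ppargc1a each had 2 probes. Ucp1, Dio2, Elovl3 and Ppargc1a are the members that cold or adrenergic stimulation switches up, and Cidea, Cox7a1, Cox8b, Otop1 and Kcnk3 are treated here as constitutive genes of the brown adipocyte.

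The comparison asked how these genes stood after left ventricular pressure overload. Male C57BL/6NCrSlc mice had thoracic aortic constriction (TAC), a band that narrows the aorta and loads the heart, or a Sham operation without the constriction, at 11 weeks of age. They were kept at 23 °C on normal chow, and the labels name no transgene. Each group had 4 mice, given as independent samples, with 1 one-colour array per mouse. The source name, the treatment protocol and the age at collection, 13 weeks, place sampling 2 weeks after surgery, whereas the description line says 4 weeks.

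Brown adipocytes burn fatty acids and glucose to make heat. Noradrenaline from sympathetic nerves acts on beta-adrenergic receptors, raises cyclic AMP and activates protein kinase A, which releases fatty acids and turns on transcription through the cyclic AMP response element, PGC-1alpha and the nuclear receptors for thyroid hormone and fatty acids. Ucp1 then lets protons flow back across the inner mitochondrial membrane without making ATP. At a room temperature below that at which mice need no extra heat, this programme is already partly on.

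Promoter sequences are given for 4 members whose behaviour differed on the arrays: Ucp1 and Otop1, whose TAC arrays all lay under the lowest Sham array, and Dio2 and Ppargc1a, which were not. The 250 bases before the start of each gene were read from RefSeq on GRCm38.p6, and each run ends at the base before the start. Cox7a1 and Cox8b also had an entry, 6 of the 9 members in all. Capitals mark TGACG and its full palindrome TGACGTCA, the cyclic AMP response element, searched on both strands, and TATAAA, the TATA box. The Ucp1 window is chr8:83290098-83290347 on the plus strand, that of Dio2 is chr12:90739039-90739288 on the minus strand, that of Ppargc1a is chr5:51567726-51567975 on the minus strand and that of Otop1 is chr5:38277154-38277403 on the plus strand.
Ucp1: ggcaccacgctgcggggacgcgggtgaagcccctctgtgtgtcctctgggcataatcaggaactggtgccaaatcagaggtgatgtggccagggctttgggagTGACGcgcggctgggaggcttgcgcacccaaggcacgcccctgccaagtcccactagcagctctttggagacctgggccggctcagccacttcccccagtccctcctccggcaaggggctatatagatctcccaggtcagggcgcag
Dio2: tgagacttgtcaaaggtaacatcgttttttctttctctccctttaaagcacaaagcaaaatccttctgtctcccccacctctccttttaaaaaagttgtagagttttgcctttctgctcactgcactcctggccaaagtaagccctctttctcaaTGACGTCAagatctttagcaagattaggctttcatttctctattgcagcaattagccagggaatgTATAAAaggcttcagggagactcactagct
Ppargc1a: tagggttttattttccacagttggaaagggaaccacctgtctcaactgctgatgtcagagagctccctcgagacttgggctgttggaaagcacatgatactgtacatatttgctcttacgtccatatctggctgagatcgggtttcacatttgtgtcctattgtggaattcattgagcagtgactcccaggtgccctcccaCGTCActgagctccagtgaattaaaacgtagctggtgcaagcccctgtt
Otop1: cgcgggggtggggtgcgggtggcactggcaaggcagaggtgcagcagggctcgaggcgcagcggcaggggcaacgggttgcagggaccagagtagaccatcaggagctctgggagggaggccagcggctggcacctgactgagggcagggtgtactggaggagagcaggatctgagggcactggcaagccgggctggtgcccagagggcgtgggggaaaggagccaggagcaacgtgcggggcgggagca

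Dio2 held the full TGACGTCA, beginning 95 bases before the start, and TATAAA 30 bases before it. Of 32851 RefSeq promoter windows of the same length, 1.55% held TGACGTCA and 12.4% held TATAAA. Ucp1 held the shorter TGACG 147 bases before its start, and Ppargc1a held it on the other strand, 49 bases before its start, where it reads CGTCA. The shorter motif is also the first part of the palindrome and lay in 17.8% of all windows. Neither Otop1, Cox7a1 nor Cox8b held any of the 3 motifs in its window. These matches describe letters in a short window and say nothing about binding, and enhancers lie outside it.

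Values are log2 intensities relative to the 75th percentile of the probes on the same array, so 0 is that percentile. Scanner values were used for 7 arrays, 3 Sham (replicates 2 to 4) and all 4 TAC. Sham replicate 1 comes from the authors' value table of all 8 arrays, which differed from the scanner values of the member probes by at most 0.01 on the log2 scale. Probes differ in how strongly they bind, so no level is set against that of another gene. In bulk tissue, fewer cells of a type and less RNA per cell cannot be told apart.

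The tissue carried brown fat RNA on every array. Ucp1 and Cidea were far above the 75th percentile, and the brown adipocyte regulators Zic1, Lhx8, Ebf2 and Prdm16 were well above background on all 7 arrays. Of 10 white fat markers 9 had a probe, and Hoxc9 was well above background on no array. The other 8 were tested, 6 of them higher after TAC with a median of 0.12. That median was 0.07 without TAC replicate 1 and -0.01 over the 8 arrays of the authors' table. TAC replicate 1 stood apart from the other arrays. On a principal component analysis its score was 89.5 on the leading axis (39.3% of the variance), against -8.33 to 4.08 for the other TAC arrays and -32.6 to -20.9 for the Sham arrays. Its mean over 12 macrophage genes was 1.05 log2 units above the Sham mean, against -0.40 to -0.13 on the other TAC arrays, and the summed level of the list ran from 52.0 to 54.5 on Sham and from 43.6 to 93.0 on TAC arrays. The summed level of 13 skeletal muscle genes ran from 66.8 to 236.5 on Sham and from 82.6 to 377.3 on TAC arrays, and all 13 had a higher TAC mean, with a median difference of 0.98, or 0.75 without TAC replicate 1. All 7 tested lymphocyte genes also had a higher TAC mean, with a median of 0.17 that became -0.08 without TAC replicate 1. In TAC replicate 1 the lymphocyte list stood 1.25 above Sham. Of all 33364 tested probes, 13865 had a higher TAC mean. The summed level of 10 adipocyte genes ran from 3640.1 to 4005 on Sham and from 3218 to 3923 on TAC arrays. The part of these RNAs in the member values was not tested, and member differences are also given without TAC replicate 1. All 7 scanner arrays were on 1 slide with the Sham arrays in one row and the TAC arrays in the other, so slide row and surgery cannot be told apart.

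Ucp1, Elovl3 and Otop1 were lower in all TAC mice than in any Sham mouse, and no member passed the test across all probes. Across the 9 genes, the probe with the highest mean intensity gave a lower TAC mean for all 9, where 58.4% of all tested probes were lower, and the Ppargc1a difference was close to 0. The differences ranged from -2.50 for Elovl3 to -0.02 for Ppargc1a with a median of -0.20, or -0.13 without TAC replicate 1, against -0.05 over all tested probes. Groups did not overlap for 4 members on the 7 scanner arrays, Ucp1, Elovl3, Otop1 and Kcnk3, and 11.9% of all tested probes had all TAC arrays under the lowest Sham array. With Sham replicate 1 the number was 3, without Kcnk3, against 6.29% of all probes.

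**Figure D1:**
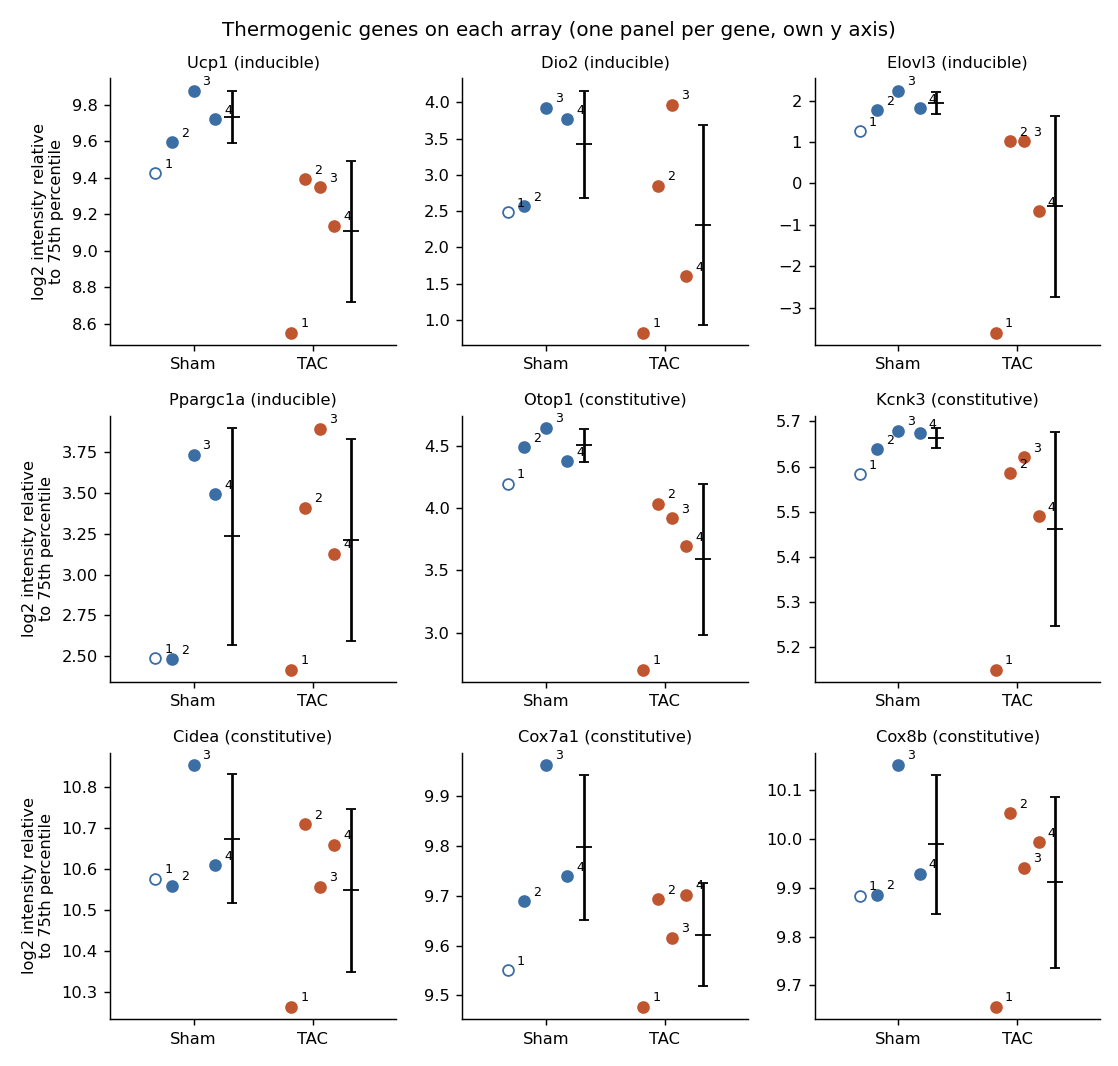
Log2 intensity relative to the 75th percentile of the array for each member on each array, with replicate numbers beside the points and bars for the mean and SD of the scanner arrays. Hollow points are Sham replicate 1 from the authors' table. TAC replicate 1 is the lowest point in all 9 panels, and the groups are apart with all 8 arrays for Ucp1, Elovl3 and Otop1.

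Ucp1, the proton channel that makes the heat, had values of 9.60, 9.88 and 9.72 in Sham replicates 2, 3 and 4 and 9.43 in Sham replicate 1. In TAC replicates 1 to 4 it had 8.55, 9.39, 9.35 and 9.14. All TAC arrays lay under the Sham range, although TAC replicate 2 lay only just under Sham replicate 1, and TAC replicate 1 was far below the rest. The difference was -0.62 on the log2 scale (SE 0.21, 95% interval -1.13 to -0.12), a change of -35.1%, with an adjusted limma p of 0.309. Without TAC replicate 1 the difference was -0.44 with an SE of 0.11 and an adjusted limma p of 0.221. It was -0.55 (SE 0.20) over the 8 arrays of the authors' table and -0.46 (SE 0.15) after quantile normalization. Over all alternatives tried it ran from -0.72 to -0.36. Before adjustment Ucp1 and both Otop1 probes had a p under 0.05, and 9.61% of all tested probes had such a p together with a lower TAC mean.

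Dio2 encodes the deiodinase that converts thyroxine into the active hormone inside the brown adipocyte. It had values of 2.57, 3.93 and 3.77 in Sham replicates 2 to 4, 2.48 in Sham replicate 1, and 0.83, 2.85, 3.97 and 1.60 in TAC replicates 1 to 4. The groups overlapped, with TAC replicate 3 the highest of all arrays and TAC replicates 1 and 4 the lowest. The difference of -1.11 (SE 0.76, 95% interval -2.89 to 0.67) had an adjusted limma p of 0.540 and came to -0.62 without TAC replicate 1. The spread within each group was wide for this gene, with an SD of 0.74 in Sham and 1.38 in TAC.

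Elovl3, an elongase that builds saturated and monounsaturated very long chain fatty acids, is among the genes that cold raises most in BAT. Its values were 1.77, 2.24 and 1.81 in Sham replicates 2 to 4, 1.26 in Sham replicate 1, and -3.60, 1.02, 1.02 and -0.67 in TAC replicates 1 to 4. All TAC arrays lay below all Sham arrays, TAC replicates 2 and 3 just under Sham replicate 1 and TAC replicate 1 far below, though still well above background. The difference of -2.50 (SE 1.09, 95% interval -5.08 to 0.08) was the largest among the members and had an adjusted limma p of 0.386. Without TAC replicate 1 it was -1.48 with an SE of 0.48 and an adjusted p of 0.290. The raw spot of TAC replicate 1 read 83 units, against 1488 to 1651 on the scanned Sham arrays. The size of the difference thus depended on how background was handled. With another background correction, normexp, it was -1.99 (SE 0.68).

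Ppargc1a encodes the coactivator PGC-1alpha, which drives mitochondrial biogenesis and Ucp1 transcription. Its brighter probe had 2.48, 3.73 and 3.49 in Sham replicates 2 to 4, 2.49 in Sham replicate 1, and 2.42, 3.41, 3.89 and 3.13 in TAC replicates 1 to 4. The groups overlapped over nearly their whole range, with both Sham replicates 1 and 2 near TAC replicate 1 at the low end. The difference was -0.02 (SE 0.41, 95% interval -1.0 to 0.96, adjusted limma p 0.987), and the second probe gave 0.11 (SE 0.35). Without TAC replicate 1 they gave 0.24 and 0.32, and over all 8 arrays they gave 0.16 and 0.26, so the direction was not settled for this gene. Dio2 shared the low values in Sham replicates 1 and 2 and the high value in TAC replicate 3.

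Among the constitutive members, Otop1 differed most. It encodes a proton channel of the otopetrin family and is a marker of brown fat. Its brighter probe had 4.49, 4.64 and 4.37 in Sham replicates 2 to 4, 4.19 in Sham replicate 1, and 2.71, 4.03, 3.92 and 3.69 in TAC replicates 1 to 4. The TAC arrays were all under the lowest Sham array, and the second probe, with Sham values from 0.98 to 1.02 and TAC values from -0.41 to 0.59, was apart in the same way, also against 0.79 in Sham replicate 1. The differences were -0.91 (SE 0.31, 95% interval -1.65 to -0.17, adjusted limma p 0.313) and -0.76 (SE 0.24, adjusted p 0.284). Without TAC replicate 1 they were -0.62 and -0.54, each with an adjusted p of 0.171, the lowest that any member reached under any alternative tried.

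Kcnk3, the potassium leak channel TASK-1, sets the resting membrane potential of brown adipocytes. It had 5.64, 5.68 and 5.67 in Sham replicates 2 to 4, 5.58 in Sham replicate 1, and 5.15, 5.59, 5.62 and 5.49 in TAC replicates 1 to 4. The TAC arrays were below the 3 scanned Sham arrays, but TAC replicates 2 and 3 were above Sham replicate 1, so the groups overlapped with all 8 arrays. The difference was -0.20 (SE 0.13, adjusted limma p 0.509), or -0.10 without TAC replicate 1.

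Cidea, a lipid droplet protein that promotes droplet fusion, had 10.56, 10.86 and 10.61 in Sham replicates 2 to 4, 10.58 in Sham replicate 1, and 10.26, 10.71, 10.56 and 10.66 in TAC replicates 1 to 4. The groups overlapped, and only TAC replicate 1 lay clearly under the Sham range. Its difference was -0.13 (SE 0.14, 95% interval -0.45 to 0.20, adjusted limma p 0.701), and it was -0.03 without TAC replicate 1. Cox7a1 and Cox8b are the muscle and heart type subunits of cytochrome c oxidase, which brown fat also uses. Cox7a1 ran from 9.69 to 9.96 in Sham and from 9.48 to 9.70 in TAC, a difference of -0.17 (SE 0.10, adjusted limma p 0.491), or -0.13 without TAC replicate 1. Cox8b ran from 9.89 to 10.15 in Sham and from 9.66 to 10.05 in TAC, a difference of -0.08 (SE 0.13, adjusted p 0.804) that came to 0.01 without TAC replicate 1. Both overlapped between groups. Their 95% intervals, -0.42 to 0.07 for Cox7a1 and -0.37 to 0.22 for Cox8b, leave out a loss as large as the Ucp1 estimate of -0.62. Both intervals overlap that of Ucp1, -1.13 to -0.12, so they do not show that these genes differed from Ucp1. The raw spots of Cidea reached 73.2 to 87.6% of the scanner's saturation value, those of Cox8b 59.4 to 68.3%, those of Cox7a1 39.6 to 49.97% and those of Ucp1 25.7 to 53.0%, those of the other members at most 3.39%. No member spot was marked as saturated, and whether differences of the bright probes were compressed was not tested.

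**Figure D2:**
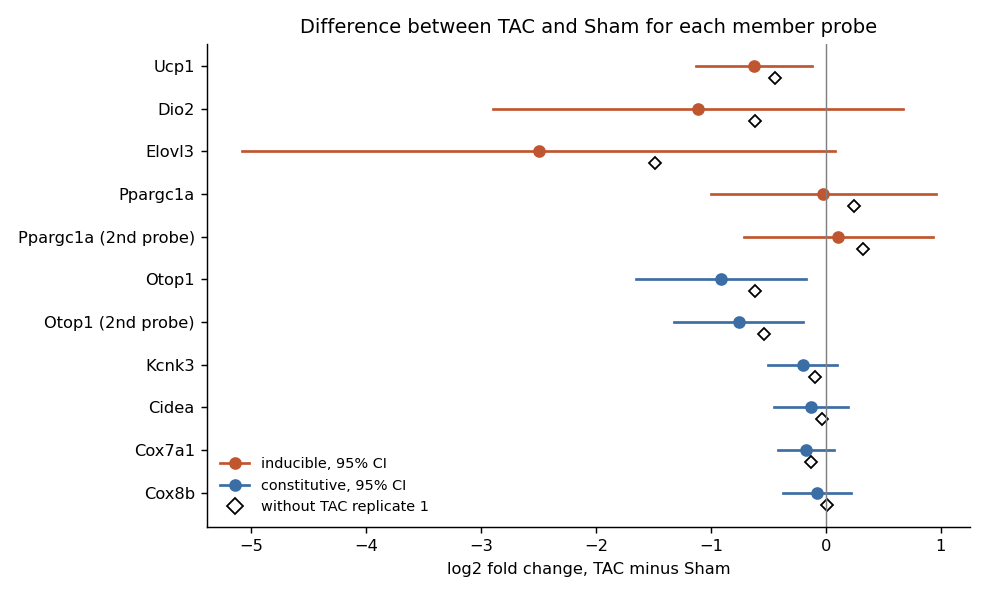
Log2 fold change of TAC against Sham for the 11 member probes, with 95% intervals from limma and diamonds for the value without TAC replicate 1. The intervals of Ucp1 and both Otop1 probes lie below 0, none of the 11 passed after adjustment over all probes, and most diamonds lie nearer to 0 than the points.

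The inducible members as a group stood lower than the constitutive members on 3 of the 4 TAC arrays, measured from the Sham mean. Some Sham arrays lie under their own mean by construction, here 1 of the 3 scanned and 2 of the 4 in the authors' table. The Sham signs therefore carry no weight, and only the overlap of the ranges can be read. With each gene set to its Sham mean, the mean of the 4 inducible genes minus the mean of the 5 constitutive genes was -0.40, 0.23 and 0.17 in Sham replicates 2 to 4 and -1.86, -0.30, 0.17 and -1.07 in TAC replicates 1 to 4. The groups overlapped, and the TAC mean of -0.76 (SD 0.89, n = 4, with a Sham SD of 0.35, n = 3) is given without a test because the members were chosen with results known. It was -0.40 without TAC replicate 1, and -0.29 without Elovl3. Over the 8 arrays, where Sham replicates 1 to 4 had -0.38, -0.28, 0.36 and 0.30, it was -0.64, or -0.27 without TAC replicate 1. Leaving out Otop1, the constitutive member with the largest difference, made it -0.92. The split into inducible and constitutive genes did not match which genes were apart with all 8 arrays. Ucp1 and Elovl3 of the inducible genes and Otop1 of the constitutive genes were lower throughout, and Dio2, Ppargc1a, Kcnk3, Cidea, Cox7a1 and Cox8b overlapped.

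The members were also compared with Cidea within each array. Over the 8 arrays of the authors' table, relative to Cidea on the same array and with the Sham mean at 0, Ucp1 was -0.72, -0.32, -0.22 and -0.53 in TAC replicates 1 to 4. In Sham replicates 1 to 4 it was -0.16, 0.03, 0.02 and 0.11, so all TAC arrays were lower, TAC replicate 3 by little against Sham replicate 1. The TAC mean was -0.45 (SD 0.22, n = 4, with a Sham SD of 0.11), or -0.35 without TAC replicate 1. Otop1 was -1.33, -0.45, -0.41 and -0.74 on the TAC arrays, again under the Sham range, which began at -0.16. Elovl3 was -4.98, -0.81, -0.66 and -2.45, also under its lowest Sham value of -0.44. Dio2, Ppargc1a, Kcnk3 and Cox7a1 overlapped between groups on this measure. Cox8b was higher by 0.02 to 0.08 on the TAC arrays than its Sham mean, and above all Sham arrays. Cidea is the brightest of these spots, so the limit on bright probes given above holds here too.

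**Figure D3:**
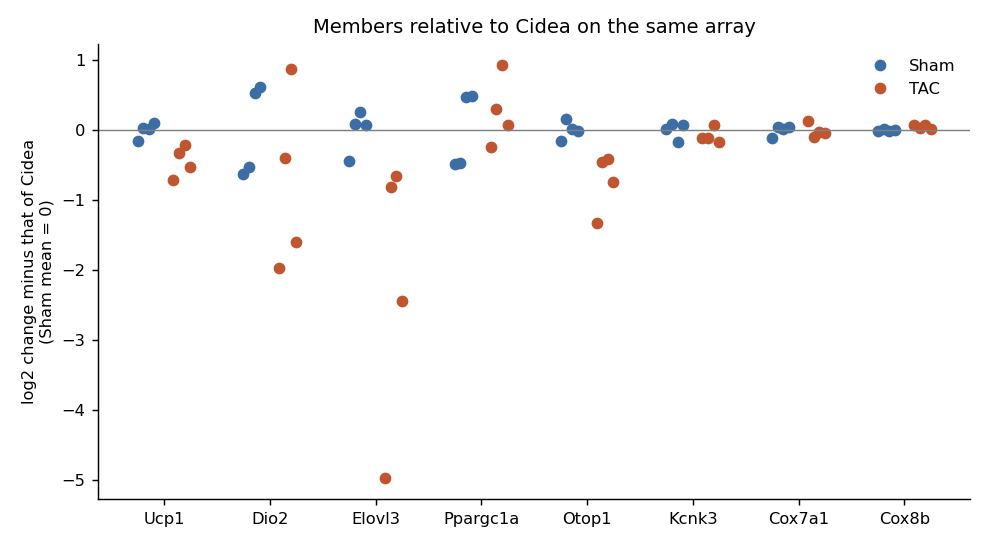
Log2 value of 8 members minus that of Cidea on the same array, with the Sham mean of each gene at 0, for the 4 Sham and 4 TAC arrays of the authors' table. The TAC points of Ucp1, Elovl3 and Otop1 lie below all Sham points, and those of Cox8b lie between 0.02 and 0.08.

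The profiles of the members were compared by a difference that is not scaled, so genes that vary little come out close to each other. Cidea, Cox7a1 and Cox8b varied over 0.59, 0.49 and 0.50 log2 units across the 7 arrays. Over the 7 arrays, with each gene centred on its own mean, the root mean square difference was 0.03 log2 units between Cidea and Cox8b, 0.07 between Cidea and Cox7a1 and 0.07 between Cox7a1 and Cox8b, the 3 closest of the 36 pairs. Ucp1 was closest to Otop1, at 0.21, and then to Kcnk3, at 0.25. Elovl3 was the farthest from the others, up to 1.79 from Cox7a1, and it varied most, over 5.84 log2 units from Sham replicate 3 to TAC replicate 1, against 0.49 for Cox7a1. Among 13665 genes measured on all 7 arrays, the 5 with the profile most like that of Ucp1 were Slc25a22, a mitochondrial glutamate carrier, at 0.06, Dlat, a subunit of pyruvate dehydrogenase, at 0.07, Hsd17b12, a reductase of fatty acid elongation, at 0.07, Mmab, an enzyme of cobalamin metabolism, at 0.08, and Gys2, a glycogen synthase, at 0.08. Otop1 ranked 525 in that list and Kcnk3 1047. The genes share arrays and labelling, and closeness is a description of these 7 arrays.

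Relatives of the members in the same gene families were measured as a comparison, and Elovl6 had the largest difference among those tested. Of 33 relatives, 22 had a tested probe, of which 15 were lower and 7 higher after TAC with a median of -0.15, or -0.10 without TAC replicate 1. That is 68.2% lower, against 58.4% of all tested probes, and 4 of the 22, or 18.2% against 11.9%, had all TAC arrays under the lowest scanned Sham array. Elovl6, which elongates palmitate to stearate, ran from 6.50 to 6.87 in Sham and from 4.52 to 5.91 in TAC. It was apart on all arrays, with a difference of -1.40 (SE 0.31, adjusted limma p 0.186) and -1.12 without TAC replicate 1. Elovl5, an elongase of polyunsaturated fatty acids, differed by -0.40 and Elovl4, which makes the longest chains and was close to background, by -0.74, both apart with all 8 arrays. Elovl1 and Elovl7 gave 0.06 and 0.54 with overlapping groups, or -0.03 and 0.31 without TAC replicate 1.

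The other uncoupling proteins and deiodinases did not separate by the probes tested. Ucp2, the form of immune and many other cells, had a difference of 0.33 (SE 0.31), which became 0.05 without TAC replicate 1. Ucp3, the form of muscle and brown fat, gave -0.16 with its brighter probe and -0.82 with the other, whose lowest value was again in TAC replicate 1, and both overlapped. Dio1 and Dio3 gave -0.28 and -0.25, also with overlapping groups, and Dio3 was at -0.15 without TAC replicate 1. Another tested Dio1 probe gave -0.04 and overlapped. A further Dio1 probe, well above background on 2 Sham and 0 TAC arrays, was too dim to be tested. Its TAC arrays lay under the scanned Sham arrays but overlapped once Sham replicate 1 was added. Of the coactivators related to PGC-1alpha, Ppargc1b gave -0.04 and Pprc1 -0.24, or -0.13 without TAC replicate 1, both overlapping.

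Cidec, the droplet protein shared by white and brown fat, gave -0.06 with overlapping groups, or 0.07 without TAC replicate 1, and Cideb, a relative best known from liver, gave -0.40 and was apart on the scanner arrays only. Among the relatives of Cox7a1 and Cox8b, Cox7a2 gave -0.19, Cox7a2l 0.15 and Cox8a -0.13, all overlapping by the probe with the highest mean. Another Cox7a2l probe gave 0.14, with all TAC arrays above all Sham arrays, on the 8 arrays too. Without TAC replicate 1 Cox7a2 and Cox8a were at -0.09 and -0.04. Of the other potassium leak channels, Kcnk4, Kcnk6, Kcnk9, Kcnk13, Kcnk15 and Kcnk16 gave differences from -0.24 to 0.09 by their brightest probes. There the groups overlapped, and without TAC replicate 1 the range was -0.33 to 0.06. A second, dimmer Kcnk4 probe gave -0.68, with all TAC arrays under all Sham arrays, on the 8 arrays too. It was well above background on the 3 scanned Sham arrays and on 0 TAC arrays. It was therefore tested only because it was high in Sham, and its separation cannot count as support for a difference. The relatives Elovl2, Cox8c, Otop2, Otop3, Kcnk1, Kcnk7, Kcnk10 and Kcnk18 were not well above background on any of the 7 arrays, and Kcnk2, Kcnk5 and Kcnk12 on too few to be tested.

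Other genes that cold or adrenergic stimulation induces went both ways. Of 19, 16 were tested, 12 lower and 4 higher after TAC, with a median of -0.20 (75% lower, against 58.4% of all tested probes). Of these 16, 3, or 18.75% against 11.9% of all probes, had all TAC arrays under the lowest scanned Sham array. Acot11, a thioesterase that cold induces in BAT, ran from 5.14 to 5.92 in Sham and from 3.69 to 4.69 in TAC, a difference of -1.21 (SE 0.29, adjusted limma p 0.203). The cyclic AMP targets Sik1 and Nr4a2 gave -1.39 and -0.85, and of these 3 genes Nr4a2 alone was also apart with Sham replicate 1. Angptl4, an inhibitor of lipoprotein lipase, went the other way, with 7.49 to 7.95 in Sham and 8.06 to 8.63 in TAC, a difference of 0.66 (SE 0.18, adjusted p 0.244), apart on all 8 arrays. Vegfa, the vascular growth factor, gave 0.24 and was also higher on all TAC arrays, as were 4.9% of all tested probes on the 7 arrays and 3.53% on the 8. Fgf21 and Nr4a3 were not well above background on any array.

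In the pathway from noradrenaline to the Ucp1 gene, the median difference was close to that of all probes. All 21 genes of adrenergic signalling were tested, 17 lower and 4 higher, or 81.0% lower against 58.4% of all tested probes. Their median was -0.09, or -0.04 without TAC replicate 1, beside -0.05 and -0.03 over all probes, and 2, or 9.52% against 11.9%, had all TAC arrays under the lowest scanned Sham array. Map2k3, a kinase upstream of p38, ran from 1.13 to 1.35 in Sham and from 0.76 to 0.90 in TAC, a difference of -0.39 (SE 0.09, adjusted limma p 0.186), apart on all 8 arrays. Adcy3, an adenylyl cyclase, gave -0.52 and was apart on the scanner arrays only, and Adrb1, a beta-adrenergic receptor, gave -0.72 with overlapping groups. Adrb3, the main beta-adrenergic receptor of adipocytes, is named here after its values were seen. Its brighter probe gave -1.02 with overlapping groups and an adjusted limma p of 0.388. Its other probe gave -0.82 with an adjusted p of 0.246, and there all TAC arrays were under the lowest Sham array, on the 8 arrays too. Without TAC replicate 1 both probes gave -0.64.

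Of 18 transcriptional regulators of Ucp1, 17 were tested, 11 lower and 6 higher, or 64.7% lower against 58.4% of all tested probes. Their median was -0.11, and 2, or 11.8% against 11.9%, had all TAC arrays under the lowest scanned Sham array. Thrb, a thyroid hormone receptor, gave -0.27 and was lower on every TAC array with all 8 arrays. Zfp516, a cold-induced activator of Ucp1, gave -0.83 and was apart on the scanner arrays, at levels near background, and Klf11, a transcription factor that PPARgamma uses in human brown-like fat cells, gave -0.38 with overlapping groups. Esrrg, an estrogen-related receptor that drives mitochondrial genes, gave 0.25 and Med1, a Mediator subunit, 0.07. Both were higher on every TAC array, as were 4.9% of all tested probes on the 7 arrays.

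The respiratory complex that holds Cox7a1 and Cox8b showed small differences, most of them negative. All 20 complex IV genes were tested, 17 lower and 3 higher, or 85.0% lower against 58.4% of all tested probes. Their median was -0.20, or -0.12 without TAC replicate 1. On the scanner arrays 7, or 35.0% against 11.9% of all probes, had all TAC arrays under the lowest Sham array, and with Sham replicate 1 added 0 did, against 6.29%. Sco1, Cox20, Cox10, Cox11 and Cox15, which assemble the complex, gave -0.58, -0.42, -0.26, -0.32 and -0.21. The subunits Cox5a and Ndufa4 gave -0.27 and -0.23, Ndufa4 coming to -0.12 without TAC replicate 1. Under quantile normalization the median of the list was -0.05.

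Of 15 other genes typical of brown adipocytes, all were tested, 11 lower and 4 higher, or 73.3% lower against 58.4% of all tested probes. Their median was -0.20, and 3, or 20% against 11.9%, had all TAC arrays under the lowest scanned Sham array. S100b, a calcium-binding protein that acts on the sympathetic nerves of BAT, gave -0.87 and Letmd1, a mitochondrial protein that thermogenesis needs, gave -0.43, both apart on the scanner arrays only. Mpzl2, an adhesion protein, gave -0.29 with the same pattern, or -0.17 without TAC replicate 1. Fabp3, a fatty acid carrier, gave 0.29 with overlapping groups. Pank1, which starts coenzyme A synthesis, gave 0.18, or 0.11 without TAC replicate 1. Pank1 was higher on all TAC arrays, as were 4.9% of all tested probes on the 7 arrays. No gene of these 6 lists had an adjusted limma p under 0.05, and 0.0% of all tested probes did.

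**Figure D4:**
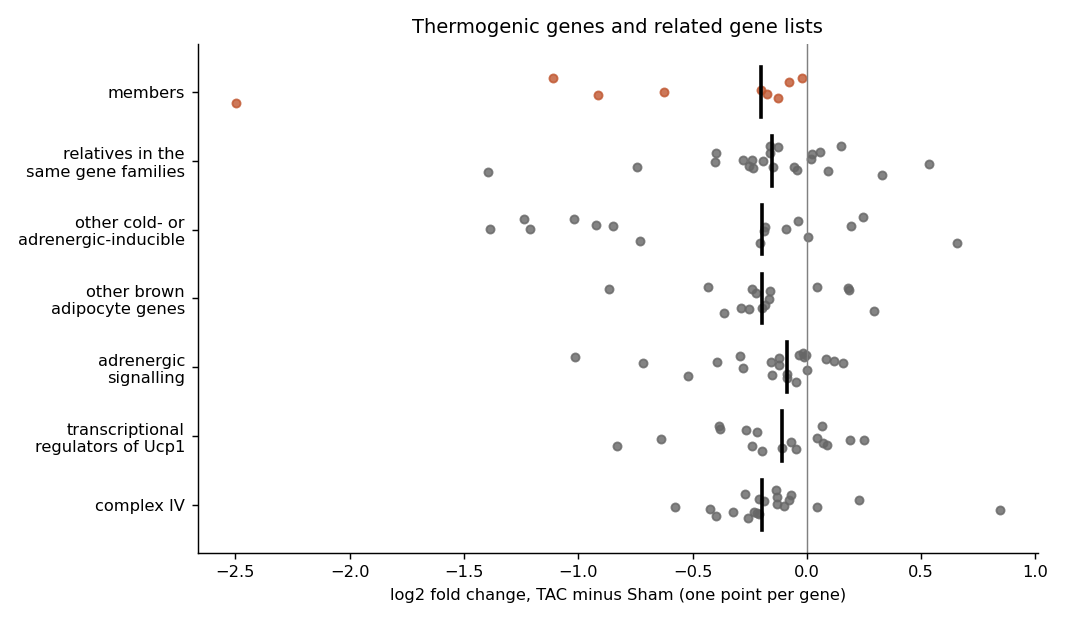
Log2 fold change of TAC against Sham for each tested gene, by its probe with the highest mean intensity, in the members and 6 related lists, with a black line at the median of each row. The medians lie between -0.20 and -0.09, and Elovl3 at -2.50 is the lowest point.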

How the data were processed

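Total RNA of BAT was labelled with Cy3 and hybridized to Agilent one-colour arrays, and per the labels spots were extracted with Agilent Feature Extraction 10.7.1.1. The deposited scanner intensities of 7 arrays are background-subtracted and linear. The authors' deposited table holds intensities of all 8 arrays, equal to the scanner intensities divided by a constant per array for 99.79 to 99.90% of values over 100 units. Here outlier spots were left out, spots of a probe averaged, log2 taken and each array's 75th percentile over probes subtracted. A probe was tested if well above background on at least 3 of 7 arrays and measured on at least 2 per group. Groups come from the sample titles. TAC and Sham were tested against each other by linear models with moderated variance (limma 3.58.1, R 4.3.3), and p-values were adjusted over 33364 probes by Benjamini-Hochberg. The models had been tested on simulated data with independent noise and changes larger than those of most members. That simulation does not cover smaller differences or an array that stands apart. The number of arrays limits precision.

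Symbols came from a RefSeq table of GRCm38.p6, which named 28026 of 55681 probes. The probe with the highest mean stands for a gene. Members and lists were chosen with earlier results of these data known. Named were all members, the tested family relatives, in each other list the 3 genes with the smallest p and those whose groups were apart, and the 5 genes most like Ucp1. Replicate numbers were not treated as pairs in the main fit. Deviations of same-numbered arrays 2 to 4 correlated at 0.0017, -0.026 and -0.021 in the scanner values. In the authors' table replicates 1 to 4 gave 0.27, 0.02, 0.06 and 0.02, only replicate 1, which holds the TAC array that stood apart, being over 0.1. So few arrays cannot show whether the numbers pair the samples. Over the 8 arrays the SE of Ucp1 was 0.126 with a replicate block and 0.195 without. Alternatives were normexp with an offset of 50, other scalings and filters, the authors' table, a variance trend, the methods' t-test, a replicate block and leaving out each array.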

Additional observations from a re-analysis of the deposited data

Results flagged for a closer look

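Of 28 groups of 4 arrays examined in the authors' table, for the 11 member probes and for the mean of the inducible genes, that of the constitutive genes and their difference, 2 had 1 array apart from the other 3, where chance alone gives about 1 in 20. Cidea was higher in Sham replicate 3, at 10.86, than in the other Sham replicates, with a gap of 0.83 of the group's range. The second Otop1 probe was lower in Sham replicate 1, at 0.79, than in the other Sham replicates, with a gap of 0.867 of the range. TAC replicate 1 was not among them. Its gap was 0.69 of the range for Ucp1, 0.74 for the brighter Otop1 probe and 0.81 for the mean of the constitutive genes. The groups share arrays, so they are not independent.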

How the results depend on the processing

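The direction and the side of the threshold held for 223 of 240 member probe values under the alternatives, and no member had an adjusted p under 0.05, the lowest being 0.171. The count holds alternatives that could not change a direction. The other filters, the variance trend and the methods' t-test kept each estimate of the main fit. The block on the 7 arrays repeated the estimates without TAC replicate 1. The other 17 changed sign, all of Ppargc1a or Cox8b. The brighter Ppargc1a probe gave 0.051 after quantile normalization, 0.16 over the 8 arrays and 0.042 as the mean of its probes. Cox8b gave 0.061 under quantile normalization. With the replicate block, whose numbers are not known to pair the samples, Ppargc1a gave 0.24 on the 7 arrays and 0.16 on the 8, and Cox8b 0.0068 on the 7. Leaving out 1 array gave -0.40 to 0.24 for Ppargc1a, -0.19 to 0.32 for its second probe and -0.13 to 0.0068 for Cox8b. The table without TAC replicate 1, added after seeing the data as were the contrasts without Otop1 or Elovl3 and a percentile over spots, gave 0.43 for Ppargc1a and 0.032 for Cox8b, and the contrast without Elovl3 then came to 0.027.

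Across all probes 0 passed, with 1277 higher and 3206 lower at an unadjusted p under 0.05. After normexp 1 was lower, by the methods' t-test 0, and without single arrays 0 to 7 were higher and 0 to 2 lower, the most without TAC replicate 4. List medians under quantile normalization were -0.089 for family relatives, -0.12 for other brown adipocyte genes, -0.054 for complex IV, 0.065 for adipocyte and -0.087 for Schwann cell genes. The Schwann list gave -0.29 over the 8 arrays, and other inducible genes -0.45 without the filter. Leaving out 1 array gave -0.21 to -0.071 for family relatives, -0.26 to -0.14 for other brown adipocyte genes, -0.33 to -0.064 for Schwann and -0.00044 to 0.11 for endothelial genes. The causes were not tested. The scalings moved the median of all probes by less than 0.1.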
